A study of Mus musculus with 4 samples.

Results

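The genes described here encode the ligands and receptors of the vascular endothelial growth factor (VEGF) and angiopoietin systems: Vegfa, Vegfb, Vegfc, Pgf, Flt1, Kdr, Flt4, Angpt1, Angpt2 and Tek. They were chosen by symbol, as 10 of the 32291 features in the matrices, and each symbol was found once in each of the 4 matrices. Single-nucleus RNA sequencing was made of whole hearts of wild-type mice at postnatal day 12. On postnatal day 7 control pups had an injection of saline and the others of AAV9-cTnT-YAP5SA. That adeno-associated vector carries YAP5SA, an activated YAP (the Hippo pathway's transcriptional co-activator), under the cardiomyocyte-active cardiac troponin T promoter. For 5 days the mothers ate chow or a diet high in fat (HFD). Each of the 4 groups was 1 library. Values of all libraries are given in 1 order throughout: the chow control, YAP5SA with chow, the HFD control and YAP5SA with HFD. The sources used here do not give the number of hearts per library, and because the controls received saline, the virus and its YAP5SA cargo cannot be told apart.

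VEGF-A, made by many parenchymal cells and raised by low oxygen, binds KDR (VEGFR2), the main signalling receptor of blood endothelium, and FLT1 (VEGFR1), which binds it tightly, signals weakly and also exists as a soluble trap. VEGF-B and placental growth factor (Pgf) bind FLT1 only, while VEGF-C acts chiefly on FLT4 (VEGFR3), the receptor of lymphatic growth. ANGPT1, made by perivascular and parenchymal cells, activates the endothelial receptor TEK (TIE2) and stabilises vessels, whereas ANGPT2 is a context-dependent antagonist of the same receptor that is classically released by remodelling endothelium.

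RefSeq (GRCm38.p6) promoter entries were matched for 8 of the 10 genes. The 250 bases before the start of Vegfa, a ligand gene called lower in cardiomyocyte-like nuclei of YAP5SA libraries, of Flt1, whose level was higher, and of Tek, whose fibroblast-like level was lower, are shown 5′ to 3′ on the strand of the gene. Capitals mark a match, on either strand, to ACGTG or GCGTG (the letters of hypoxia response elements), GGAATG (a TEAD-type motif; TEAD proteins are the DNA-binding partners of YAP) or AAGGTCA (a motif of oestrogen-related receptors), and none of these motifs overlaps another in the sequences shown.
Vegfa, chr17:46032378-46032627, minus strand: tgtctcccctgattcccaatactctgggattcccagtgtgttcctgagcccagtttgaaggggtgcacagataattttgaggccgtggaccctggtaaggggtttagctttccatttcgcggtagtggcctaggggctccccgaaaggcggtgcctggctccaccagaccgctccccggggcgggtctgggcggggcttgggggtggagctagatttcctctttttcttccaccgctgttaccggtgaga
Flt1, chr5:147726012-147726261, minus strand: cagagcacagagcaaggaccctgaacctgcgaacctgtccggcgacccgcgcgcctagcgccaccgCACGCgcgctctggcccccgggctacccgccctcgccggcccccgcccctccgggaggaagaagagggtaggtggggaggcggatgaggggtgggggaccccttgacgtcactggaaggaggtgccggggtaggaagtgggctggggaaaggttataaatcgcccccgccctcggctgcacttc
Tek, chr4:94739039-94739288, plus strand: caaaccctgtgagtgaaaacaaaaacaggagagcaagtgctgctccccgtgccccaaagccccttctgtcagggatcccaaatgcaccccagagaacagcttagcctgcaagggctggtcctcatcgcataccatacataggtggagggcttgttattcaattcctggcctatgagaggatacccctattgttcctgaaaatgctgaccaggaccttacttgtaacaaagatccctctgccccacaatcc
In the same build (mm10, GENCODE vM21) Vegfa spans chr17:46016993-46032369, Flt1 chr5:147561604-147726011, Kdr chr5:75932827-75978458 and Tek chr4:94739289-94874976. The Flt1 sequence held 1 GCGTG, on the strand opposite to the gene and 184 bases before the start. The Vegfa and Tek windows shown held none of the 4 motifs. RefSeq gives a second Vegfa start, whose window (chr17:46025164-46025413) is not shown and held GCGTG 218 bases and, on the opposite strand, ACGTG 211 bases before the start. Among 32851 promoter windows of the same length, 28.2% held GCGTG, 16.6% ACGTG, 12.6% GGAATG and 4.08% AAGGTCA, so a match or its lack in 1 window is a description only.

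The libraries held 6977, 9368, 9145 and 11158 barcodes and between 43.4 and 61.2 × 1e6 unique molecular identifiers (UMIs). After filtering, 32143 of 36648 nuclei were kept, with medians of 4166 to 5045 UMIs per nucleus, and any 2 libraries shared between 11 and 34 barcodes. YAP5SA on chow was a male library (298 Xist and 4760 Ddx3y UMIs) and the other 3 were female, so the HFD pair is the comparison within 1 sex. Groups follow the titles. The treatment labels contradict the titles for 2 libraries, giving HFD for YAP5SA on chow and chow for the HFD control. All labels give the same arms, but if the treatment labels hold, diet and vector changed together and cannot be told apart. Nuclei were clustered without the 10 genes and classes were named from marker genes, hence "-like". Some clusters were nearly confined to 1 arm: of the cardiomyocyte-like nuclei, cluster 13 held 1, 1724, 3 and 1150 nuclei and cluster 26 held 0, 1096, 0 and 626. Cluster 26 had only 5 of 14 cardiomyocyte markers present, and its Ttn level was 4842 counts per 1e6 UMIs (CPM) against 17118 in the other cardiomyocyte-like clusters and 481 in endothelial-like nuclei.

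By the mean over libraries, Vegfa and Vegfb were highest in cardiomyocyte-like nuclei, Vegfc in endothelial-like nuclei and each receptor in a vascular class. Each level below is CPM of the summed UMIs of a class in a library, and levels are compared between classes for the same gene only. Vegfa was highest in cardiomyocyte-like nuclei in both control libraries, at 640, 373, 616 and 296 CPM (mean 481 ± 172 SD, n = 4 libraries), and that class held 75.7% to 87.4% of the gene's UMIs. Atrial cardiomyocyte-like nuclei followed at 346, 442, 335 and 314 CPM, a range that overlaps the ventricular one. Fibroblast-like nuclei had 134, 116, 136 and 107 CPM, endocardial-like nuclei 96.3, 96.9, 66.9 and 66.5 CPM and endothelial-like nuclei 56.6, 79.8, 56.8 and 62.5 CPM. Vegfb had its highest mean over libraries in cardiomyocyte-like nuclei too, with 46.5, 24.0, 42.1 and 32.9 CPM, though in YAP5SA on chow lymphatic-endothelial-like nuclei stood above them at 31.4 CPM (7 UMIs) and Schwann-like nuclei at 34.7 CPM. Fibroblast-like nuclei had 11, 11.5, 10.4 and 13 CPM of Vegfb.

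Vegfc had its highest mean level in another class, but its UMIs came from several. Cardiomyocyte-like nuclei, at a low level, still held 9.87%, 21.6%, 5.58% and 16.6% of them. Endothelial-like nuclei gave 726, 765, 764 and 823 CPM, against 222, 154, 159 and 152 CPM in fibroblast-like and 15.6, 26.4, 16.9 and 25.6 CPM in cardiomyocyte-like nuclei. Within the endothelial-like class the level was higher in cluster 23, which carries arterial markers. In the 2 HFD libraries, where that cluster reached 50 nuclei, its Vegfc level was 1829 and 1610 CPM. It held only 52 and 72 nuclei there, against 560 and 326 in cluster 14, so its level is not its share of the class's Vegfc UMIs. Epicardial-like nuclei had 170, 102, 69.8 and 208 CPM, a wide range that overlaps the fibroblast-like one. Pgf was scarce, at 4.35, 7.82, 4.93 and 8.42 CPM in fibroblast-like nuclei and 13.3, 12.9, 10.0 and 5.96 CPM in smooth-muscle-like nuclei, 2 ranges that overlap. The smooth-muscle-like values rest on 3, 2, 6 and 2 UMIs. Lymphatic-endothelial-like nuclei had 27.0, 4.49, 8.85 and 0 CPM, from 5, 1, 4 and 0 UMIs.

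The receptors differed in how they were spread over the vascular classes. Flt1 was highest in endothelial-like nuclei at 954, 1667, 1130 and 1563 CPM, with endocardial-like nuclei, which line the chambers, next at 764, 1159, 790 and 1167 CPM. Kdr was far more uneven between the same 2 classes, with 544, 439, 402 and 390 CPM in endothelial-like and 58.9, 63.7, 92.0 and 79.1 CPM in endocardial-like nuclei. The ratio of Flt1 to Kdr UMIs was 1.75, 3.79, 2.81 and 4 in endothelial-like nuclei and 13, 18.2, 8.59 and 14.8 in endocardial-like nuclei, with no overlap between the classes. Kdr was also found in lymphatic-endothelial-like nuclei (292, 310, 232 and 278 CPM) and in epicardial-like nuclei, the mesothelial cover of the heart (270, 135, 209 and 140 CPM), 2 ranges that overlap. The endothelial-like cluster 23 had little of it, at 95.6 and 96.7 CPM in the HFD libraries against 427 and 470 CPM in cluster 14. Flt4 marked lymphatic-endothelial-like nuclei, with 567, 332, 390 and 530 CPM against 32.2 to 50.03 CPM in endothelial-like nuclei. Lymphatic-endothelial-like nuclei also had 265, 916, 764 and 394 CPM of Flt1 and 389, 597, 361 and 343 CPM of Tek. Only 33 to 88 nuclei per library stood behind the lymphatic values.

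Tek was highest in endocardial-like nuclei in all 4 libraries, at 830, 1047, 835 and 1176 CPM, with endothelial-like nuclei at 701, 797, 781 and 901 CPM; the ranges over libraries overlap. It was not limited to vessels: epicardial-like nuclei had 246, 312, 205 and 354 CPM and fibroblast-like nuclei 299, 71.0, 429 and 137 CPM. Its ligand Angpt1 was spread over several classes. Cardiomyocyte-like nuclei had 88.7, 28.2, 137 and 53.6 CPM and held 39.8% to 60.5% of the gene's UMIs, fibroblast-like nuclei had 159, 79.4, 147 and 73.5 CPM, and endocardial-like nuclei 135, 43.3, 132 and 25.6 CPM. Atrial cardiomyocyte-like nuclei had 83.5, 113, 1334 and 473 CPM, the highest of any class in every library but control on chow. They numbered 14, 82, 87 and 194, so the control-on-chow value rests on few nuclei. Endothelial-like nuclei were low (13.7, 14.4, 25.8 and 55.4 CPM), and their cluster 23 stood at 197 and 240 CPM in the HFD libraries. Angpt2 had no single source class, with 81.0, 108, 48.7 and 359 CPM in lymphatic-endothelial-like, 32.9, 122, 43.9 and 170 CPM in macrophage-like, 50.03, 61.9, 50.4 and 85.8 CPM in endothelial-like and 46.3, 96.3, 36.9 and 145 CPM in fibroblast-like nuclei. Endocardial-like nuclei had 67.3, 39.5, 60.1 and 74.3 CPM and pericyte-like nuclei 56.4, 67.3, 49.1 and 80.5 CPM. In both control libraries the macrophage-like and fibroblast-like levels lay below the endocardial-like and pericyte-like ones.

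**Figure D1:**
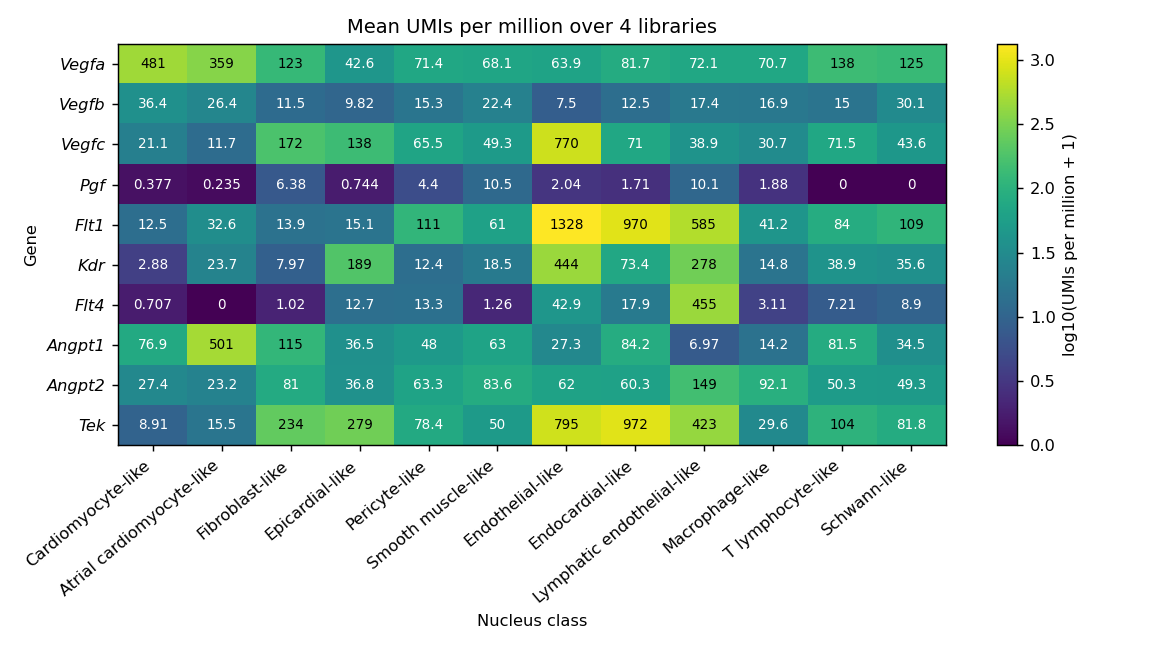
Heat map of the mean level of each of the 10 genes (rows) in each nucleus class (columns), as UMIs per 1e6 UMIs of the class sum averaged over the 4 libraries; the colour is log10 of that mean plus 1 and the number in each cell is the mean itself. Vegfa is highest in cardiomyocyte-like nuclei (481), Vegfc, Flt1 and Kdr in endothelial-like nuclei (770, 1328 and 444), Tek in endocardial-like nuclei (972) and Flt4 in lymphatic-endothelial-like nuclei (455); levels are not to be compared between genes.

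Shares of nuclei gave the same order for the receptors. In endothelial-like nuclei 84.3%, 87.4%, 84.3% and 89.2% held an Flt1 UMI and 77.1%, 58.4%, 64.5% and 54.0% a Kdr UMI, at median depths of 3460, 2734, 3316 and 2503 UMIs. In cardiomyocyte-like nuclei, which should lack Kdr and were deeper (medians of 5795, 4999, 6012 and 4895 UMIs), 1.76%, 1.36%, 2.57% and 1.25% held a Kdr UMI. After each nucleus was thinned to 2000 UMIs, the endothelial-like Kdr share was 62.1%, 49.8%, 51.3% and 47.6%, with 63, 113, 101 and 127 shallower nuclei left out.

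The genes were then compared between YAP5SA and control in sums per class, with the 2 diets standing in as replicates of each arm. The test was edgeR's quasi-likelihood test over all genes of a class with Benjamini-Hochberg adjustment, and a gene is called at an adjusted p under 0.05. In cardiomyocyte-like nuclei 3 of 9 tested members were called. Vegfa fell from 640 and 616 CPM in the controls to 373 and 296 CPM, a log2 fold of −0.97 ± 0.21 (SE; adjusted p = 0.0345). Angpt1 fell from 88.7 and 137 to 28.2 and 53.6 CPM (log2 fold −1.57 ± 0.34, adjusted p = 0.0322). Flt1 rose from 5.08 and 5.63 to 15.6 and 23.8 CPM (log2 fold 1.79 ± 0.26, adjusted p = 0.00937). For all 3 genes the arms do not overlap, and the HFD pair, both female, ran the same way as the chow pair. Over all 16870 genes tested in that class 8.09% were called higher and 4.44% lower, so 1 of 9 higher is close to that background. Vegfb (log2 fold −0.72 ± 0.19, adjusted p = 0.0544), Angpt2 (0.68 ± 0.18, adjusted p = 0.0559) and Vegfc (0.61 ± 0.20, adjusted p = 0.0945) did not pass, and neither did Tek, Kdr or Flt4.

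**Figure D2:**
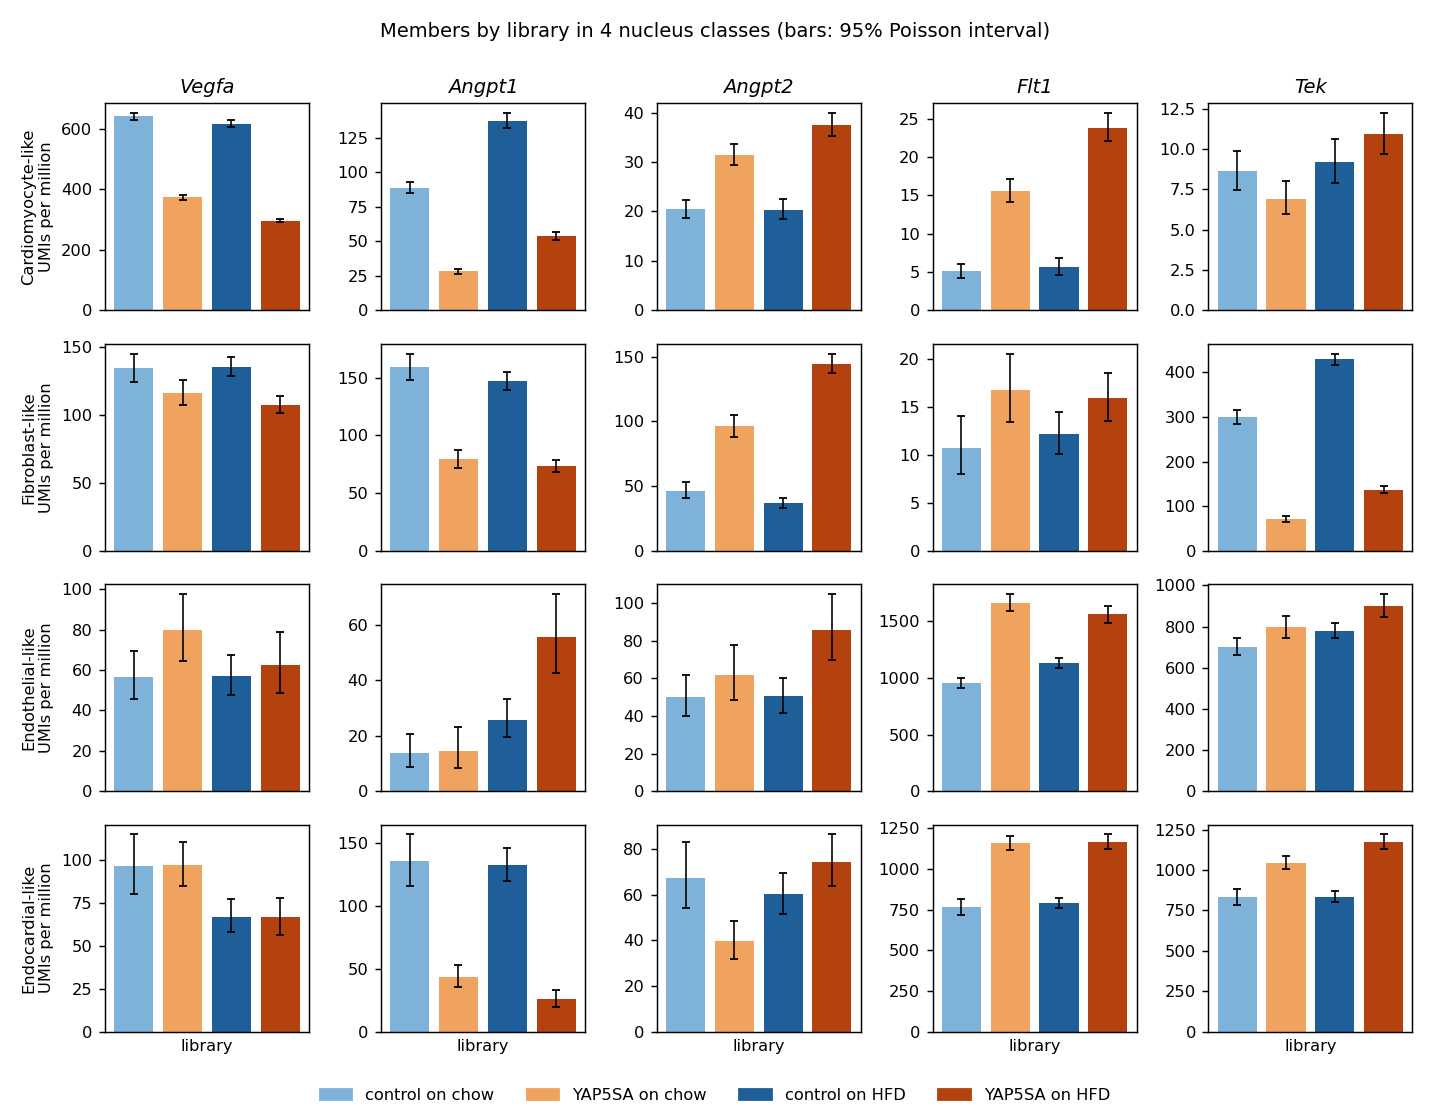
Level (CPM, linear axis from 0) of Vegfa, Angpt1, Angpt2, Flt1 and Tek (columns) in 4 nucleus classes (rows), with 1 bar per library and its exact 95% Poisson interval, which covers counting error only. The levels of the arms do not overlap for the called members (Vegfa, Angpt1 and Flt1 in cardiomyocyte-like, Tek, Angpt1 and Angpt2 in fibroblast-like and Angpt1 in endocardial-like nuclei), nor for several that were not called, such as Flt1 and Tek in endocardial-like nuclei.

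The cardiomyocyte-like calls rest on which clusters the class holds. Without cluster 26, which has no control nuclei, none of 9 tested members was called by edgeR and 5 had an unadjusted p under 0.05: Flt1 had a log2 fold of 1.14 (adjusted p = 0.0742), Angpt1 −1.27 (0.0725 adjusted) and Vegfa −0.84 (0.0939 adjusted), with 3.12% of genes called higher and 1.37% lower. In the 4 clusters with at least 50 nuclei in every library (clusters 8, 10, 11 and 12) none was called and 4 had an unadjusted p under 0.05, with Vegfa at −0.58 (adjusted p = 0.301), Angpt1 at −0.71 (adjusted p = 0.231) and Flt1 at 0.77 (adjusted p = 0.210). There 0.428% of genes were called higher and 0.113% lower. DESeq2 was not run on these cluster subsets.

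The clusters themselves differed in level. Vegfa stood at 709, 816, 722 and 422 CPM in cluster 10 and at 660, 582, 629 and 382 CPM in cluster 12. These clusters had 14 and 13 of 14 cardiomyocyte markers present. In the YAP5SA libraries cluster 13, with 12 of the 14 markers, had 304 and 211 CPM. Cluster 26, with 5 of the 14, had 230 and 200 CPM there. Cluster 8 was low in every library, at 285, 140, 282 and 100 CPM. For Angpt1, clusters 10 (71.2, 38.7, 90.7 and 46.0 CPM) and 12 (142, 112, 212 and 98.8 CPM) had lower YAP5SA than control levels, cluster 11 had 103, 106, 152 and 76.4 CPM with overlapping arms, and clusters 13 (9.48 and 9.53 CPM) and 26 (2.65 and 3.63 CPM) were low. Cluster 8, which carries cell-cycle genes, had 82.3 and 107 CPM of Angpt1 in the controls against 5.88 and 11.2 CPM in YAP5SA. Flt1 reached 29.9 and 63.9 CPM in cluster 26 and 11.6 and 25.4 CPM in cluster 13, and was 5.79, 6.03, 6.36 and 8.37 CPM in cluster 10. In cluster 8 it was 5.37, 16.2, 6.48 and 56.8 CPM, higher in both YAP5SA libraries. The Flt1 to Kdr ratio of cardiomyocyte-like nuclei was 1.90, 6.21, 1.42 and 10.1. It was 1.75 to 4 in endothelial-like, 8.59 to 18.2 in endocardial-like and 4.39 to 26 in pericyte-like nuclei. The summed endothelial markers of the cardiomyocyte-like class were 78.0, 66.9, 98.6 and 55.7 CPM, lower in both YAP5SA libraries, while the summed endocardial markers were 96.4, 227, 104 and 176 CPM, higher in both; their part in the Flt1 result was not tested.

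**Figure D3:**
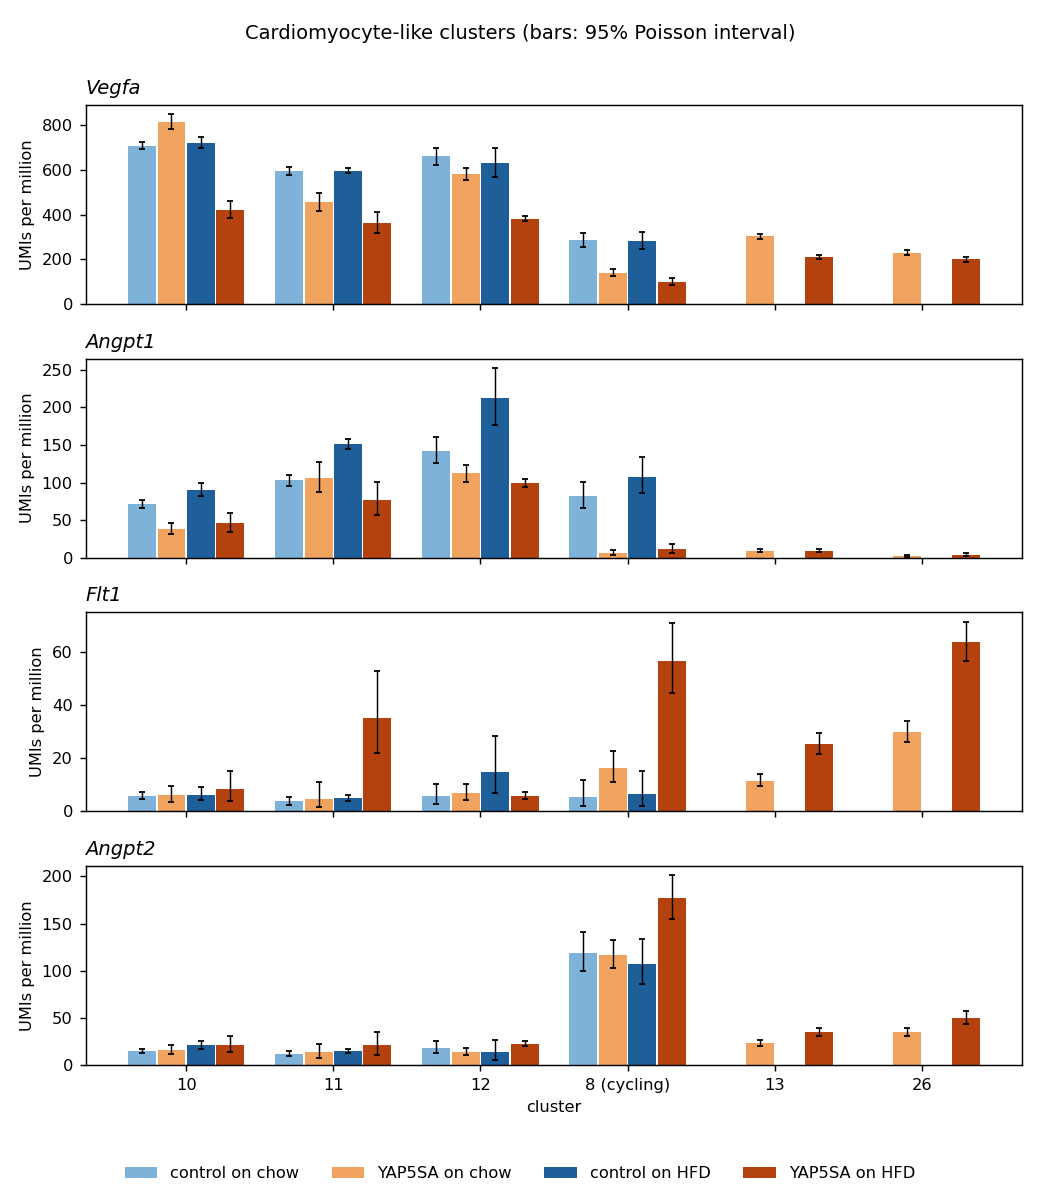
Level (CPM) of Vegfa, Angpt1, Flt1 and Angpt2 in each cardiomyocyte-like cluster, with 1 bar per library and its exact 95% Poisson interval; no bar means fewer than 50 nuclei, and cluster 8 carries cell-cycle genes. Clusters 13 and 26 have bars for the YAP5SA libraries only, with Angpt1 between 2.65 and 9.53 CPM, and Angpt2 is highest in cluster 8.

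In fibroblast-like nuclei the angiopoietin genes moved in both directions. Tek fell from 299 and 429 to 71.0 and 137 CPM (log2 fold −1.93 ± 0.28, adjusted p = 0.00470). Angpt1 fell from 159 and 147 to 79.4 and 73.5 CPM (log2 fold −1.12 ± 0.14, adjusted p = 0.00247). Angpt2 rose from 46.3 and 36.9 to 96.3 and 145 CPM (log2 fold 1.42 ± 0.21, adjusted p = 0.00459). The arms do not overlap for any of the 3, and they were the calls among 9 tested members, where 6.89% of 15370 genes were called higher and 5.58% lower. Vegfa (log2 fold −0.39, adjusted p = 0.0894), Vegfc (−0.43, adjusted p = 0.137) and Pgf (0.67, adjusted p = 0.174) did not pass.

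The fibroblast-like class also changed in its clusters. Cluster 1 held 20, 669, 34 and 1070 nuclei, cluster 2 held 281, 11, 760 and 69, cluster 18, which carries cell-cycle genes, 66, 278, 101 and 557, and cluster 0 729, 281, 1270 and 621. Tek was high in cluster 2 (505, 668 and 562 CPM in the libraries with 50 nuclei, which leaves out YAP5SA on chow) and low in cluster 1 (49.8 and 118 CPM in the YAP5SA libraries). Angpt1 was highest in cluster 0 (219, 342, 229 and 223 CPM) and low in cluster 1 (15.4 and 25.0 CPM). In cluster 0 alone none of 9 tested members was called by edgeR and 3 had an unadjusted p under 0.05: Tek had a log2 fold of −0.73 (adjusted p = 0.0895), Angpt2 0.58 (adjusted p = 0.314) and Angpt1 0.25 (adjusted p = 0.648), the opposite sign to the whole class, with 0.203% of genes called higher and 0.227% lower. Without cluster 18 the 3 calls held, at log2 folds of −1.78 for Tek (adjusted p = 0.0109), −0.80 for Angpt1 (adjusted p = 0.0169) and 0.90 for Angpt2 (adjusted p = 0.0318), beside 3.98% of genes higher and 4.03% lower.

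**Figure D4:**
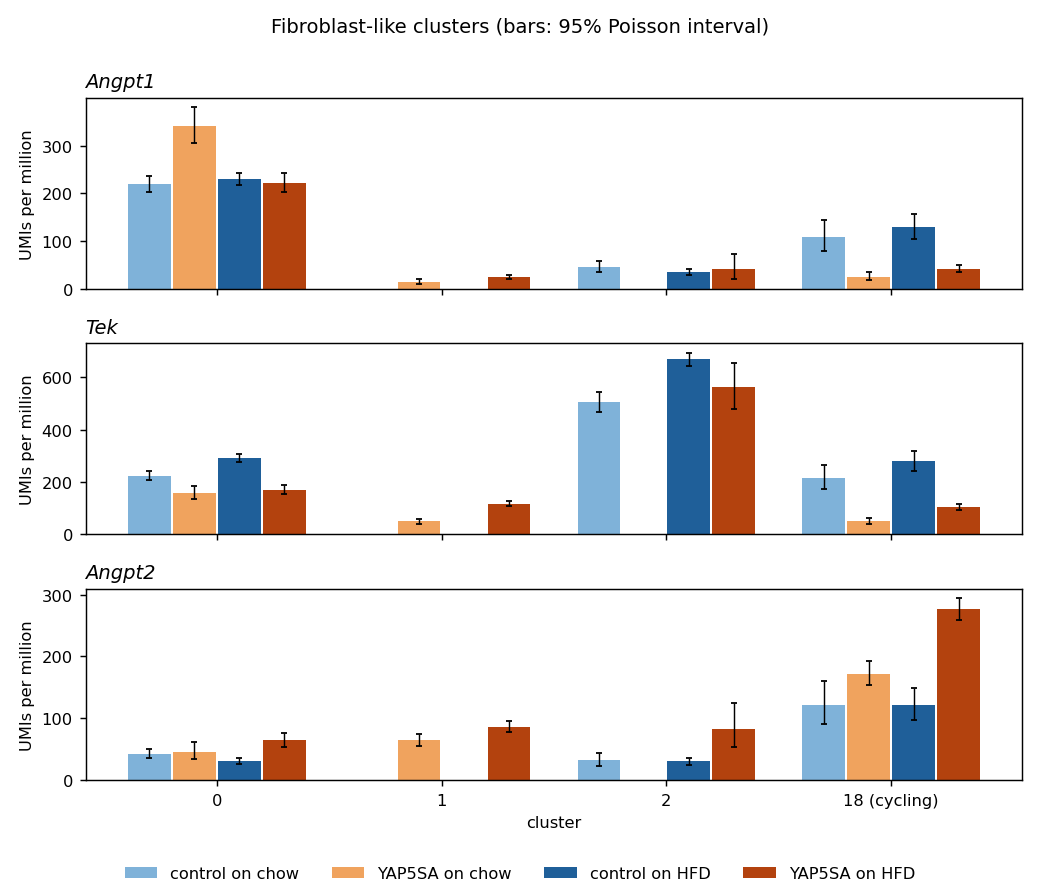
Level (CPM) of Angpt1, Tek and Angpt2 in each fibroblast-like cluster, with 1 bar per library and its exact 95% Poisson interval; no bar means fewer than 50 nuclei. Tek is highest in cluster 2, Angpt1 in cluster 0 and Angpt2 in cluster 18.

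Angpt2 (chr8:18690263-18741562, minus strand, mm10, GENCODE vM21) lies wholly, over 51300 bases, inside Mcph1 (chr8:18595131-18803189, plus strand), a gene of chromosome condensation and the DNA damage response. The sources used here do not say whether the authors counted by strand, so reads of the 2 genes cannot be told apart. Mcph1 was 82.8, 130, 83.3 and 123 CPM in fibroblast-like nuclei and 244, 212, 256 and 216 CPM in their cluster 18. Angpt2 in cluster 18 was 122, 172, 121 and 276 CPM, higher in both YAP5SA libraries than in both controls, whereas Mcph1 there was lower in both. Angpt2 was also high in the cardiomyocyte-like cluster 8 (119, 117, 107 and 177 CPM), where Mcph1 was 187, 169, 211 and 193 CPM. Over 66 cluster-by-library sums of 22 clusters, which share libraries and depth, the Pearson r of log2(CPM + 1) was 0.863 between Angpt2 and Mcph1, 0.857 between Angpt2 and Top2a (topoisomerase IIα, a gene of dividing cells) and 0.895 between Mcph1 and Top2a. Top2a itself was 86.3, 265, 76.9 and 303 CPM in fibroblast-like nuclei; its part in the Angpt2 result was not tested. Angpt1 (chr15:42424723-42676977, minus strand) overlaps the antisense gene Gm17473 by 737 bases.

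**Figure D5:**
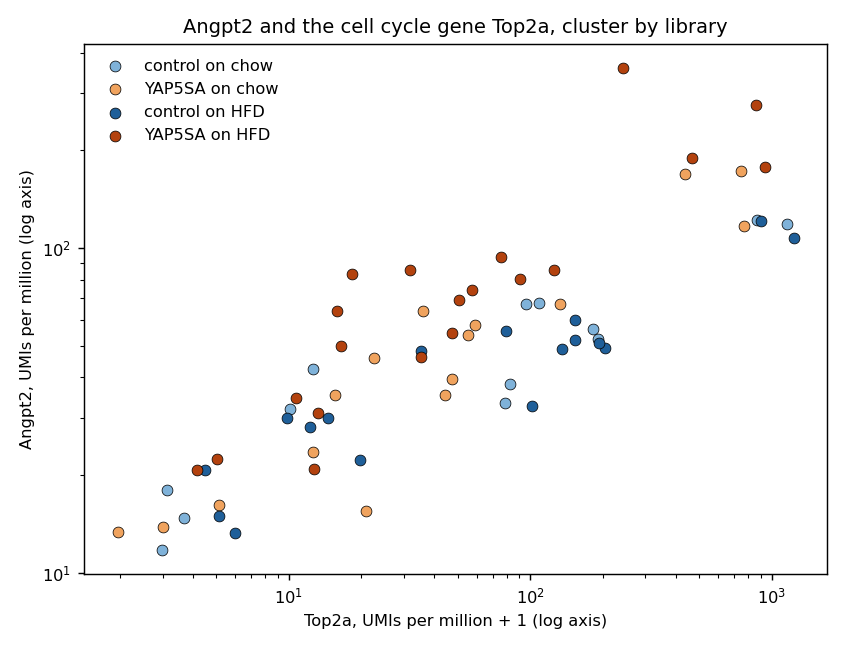
Angpt2 level (CPM) against Top2a level (CPM + 1), both on log axes, with 1 point per cluster and library sum (66 sums of 22 clusters) and colours for the 4 libraries. Sums with a high Top2a level also have a high Angpt2 level (Pearson r of log2(CPM + 1), 0.857).

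In the vascular receptor cells few members were called. Endocardial-like Angpt1 fell from 135 and 132 to 43.3 and 25.6 CPM (log2 fold −1.98 ± 0.25, adjusted p = 0.00556), the 1 call of 9 tested members, with 0.848% of 12141 genes called higher and 1.33% lower. Cardiomyocyte markers in the endocardial-like sums were lower too, at 4638, 1379, 3188 and 1409 CPM; none of the 14 was at 0 in every sum, and their part in the result was not tested. Endocardial-like Flt1 (log2 fold 0.54, adjusted p = 0.150) and Tek (0.38, adjusted p = 0.352) were higher in both YAP5SA libraries than in both controls and did not pass. Endothelial-like Flt1 was higher in both YAP5SA libraries (1667 and 1563 against 954 and 1130 CPM) without passing the test (log2 fold 0.59 ± 0.14, adjusted p = 0.0904). None of the 9 tested members was called there by edgeR, 2 had an unadjusted p under 0.05, DESeq2 called 1, and 0.377% of 10889 genes were called higher and 0.597% lower. Those shares are unstable: the 41 and 65 genes behind them became 501 and 448 without YAP5SA on chow and 0 and 0 with the loose nucleus filter. In endothelial-like cluster 14 alone, Flt1 passed (962, 1737, 1143.5 and 1700 CPM, log2 fold 0.67 ± 0.13, adjusted p = 0.0309), with 0.808% of genes called higher and 0.893% lower. Endothelial-like Kdr had a log2 fold of −0.22 (adjusted p = 0.608) and Tek 0.16 (adjusted p = 0.647). The Kdr arms overlapped, while both YAP5SA Tek levels (797 and 901 CPM) lay above both control levels (701 and 781 CPM).

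Pericyte-like nuclei, the mural cells of capillaries, had Flt1 levels of 61.1, 112, 65.7 and 206 CPM, which rose by a log2 fold of 1.35 ± 0.26 (adjusted p = 0.0199). It was the 1 call of 9 tested members, with 1.02% of 9526 genes called higher and 1.03% lower, and the call was lost without YAP5SA on HFD. Pericyte-like Vegfa was 110, 57.4, 78.2 and 39.6 CPM (log2 fold −1.01, adjusted p = 0.118), and the cardiomyocyte markers of those sums, 7166, 1795, 4114 and 2654 CPM, were also lower in YAP5SA. In epicardial-like nuclei none of 8 tested members was called by edgeR or DESeq2 and 3 had an unadjusted p under 0.05, with 0.0803% of genes higher and 0.0301% lower. Those 3 were Angpt1 (64.8, 15, 46.8 and 19.3 CPM, adjusted p = 0.109), Kdr (270, 135, 209 and 140 CPM, adjusted p = 0.200) and Tek (246, 312, 205 and 354 CPM, adjusted p = 0.257), and their arms do not overlap.

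Macrophage-like nuclei gave 3 calls among 7 tested members, beside 1.94% of 9467 genes called higher and 4.29% lower. Angpt2 rose from 32.9 and 43.9 to 122 and 170 CPM (log2 fold 1.83 ± 0.30, adjusted p = 0.0128). Vegfa was 187, 32.7, 49.4 and 13.7 CPM (log2 fold −2.57 ± 0.63, adjusted p = 0.0458) and Tek 30.8, 13.4, 60.4 and 13.7 CPM (log2 fold −1.86 ± 0.42, adjusted p = 0.0338). The cardiomyocyte markers summed over the same nuclei were 15849, 1369, 4378 and 1580 CPM, in the order of Vegfa except between the YAP5SA libraries, and Vegfa per 100 Ttn UMIs was 3.49, 14.2, 4.85 and 3.57 against 3.35, 3.20, 3.08 and 2.25 in cardiomyocyte-like nuclei. Top2a (65.8, 279, 162 and 401 CPM) and Mcph1 (84.2, 178, 132 and 172 CPM) were also higher in both YAP5SA libraries, and their part in the result was not tested. In cluster 7 alone Angpt2 (log2 fold 1.90, adjusted p = 0.00782) and Vegfa (−2.73, adjusted p = 0.0422) were called and Tek was not (−0.72, adjusted p = 0.459), with 2.34% of genes higher and 3.19% lower. Over 15 alternative settings Vegfa kept its call in 8 and Tek in 6.

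Over all nuclei of a library, where the mix of classes enters, edgeR called none of the 10 members, with 1.55% of 19839 genes called higher and 0.499% lower. An unadjusted p under 0.05 was found for 6, and DESeq2 called 1 higher and 2 lower. Angpt1 had a log2 fold of −1.26 (adjusted p = 0.0775), Kdr −0.93 (adjusted p = 0.0887) and Angpt2 0.91 (adjusted p = 0.0787).

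The YAP5SA effect differed between classes for several members, tested as the interaction of class and arm with a term for each library. For Tek it was higher in endothelial-like than in fibroblast-like nuclei by 2.11 ± 0.22 on the log2 scale (adjusted p = 2.74e-05). For Vegfa it was higher in endothelial-like than in cardiomyocyte-like nuclei by 1.24 ± 0.23 (adjusted p = 0.00108), and for Flt1 lower by 1.20 (adjusted p = 0.00212). The fibroblast-like and cardiomyocyte-like sums also changed in their clusters, and no pair was refitted within a cluster. The share of all genes whose effect differed was 6.31% between endothelial-like and fibroblast-like, 7.65% between endothelial-like and cardiomyocyte-like, 0.764% between endocardial-like and endothelial-like, 5.86% between endocardial-like and fibroblast-like, 12.6% between cardiomyocyte-like and fibroblast-like and 7.07% between endocardial-like and cardiomyocyte-like nuclei.

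The diets were compared over both arms with the arm as a term, and edgeR called none of the members in any class or over all nuclei. Over all genes the share called in either direction was 0.0119% in cardiomyocyte-like, 0.0412% in endocardial-like and 0.143% in fibroblast-like nuclei and 0.0% in the other 4 classes and over all nuclei. The number of members with an unadjusted p under 0.05 was 2 over all nuclei and in endothelial-like nuclei, 1 in each of the other 5 classes and 0 in pericyte-like nuclei; DESeq2 was not run on diet. The smallest p was that of fibroblast-like Tek, higher on HFD in both arms (429 against 299 and 137 against 71.0 CPM; log2 fold 0.71 ± 0.16, adjusted p = 0.120). Angpt1 in cardiomyocyte-like nuclei was also higher on HFD in both arms (137 against 88.7 and 53.6 against 28.2 CPM; log2 fold 0.75 ± 0.19, adjusted p = 0.871).

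Lists of pathway genes put these values in context. The first list held 5 genes: those that process VEGF-C, co-receptors and the ligand gene Vegfd. In fibroblast-like nuclei 3 of the 5 were called lower and 0 higher (median log2 fold −0.77, against 0.01 over all genes). Over all genes of that class 6.89% were called higher and 5.58% lower. Ccbe1, which promotes VEGF-C maturation, fell from 194 and 189 to 29.6 and 47.1 CPM (log2 fold −2.43, adjusted p = 0.000903), Vegfd, another ligand of FLT4, fell by 1.54 (adjusted p = 0.00235) and Adamts3, the protease that cleaves pro-VEGF-C, fell by 0.77 (adjusted p = 0.0379), both on the log2 scale. In cluster 0 alone, whose share of the class was lower in YAP5SA, none of the 5 was called (median −0.25; Ccbe1 −0.78, adjusted p = 0.0727), and without cluster 18 Ccbe1 and Vegfd were. Cardiomyocyte-like nuclei had Adamts3 lower (log2 fold −1.15, adjusted p = 0.0142) and Vegfd higher (2.82, adjusted p = 0.00887), with a list median of −0.08 against 0.04 over all genes. Neither was called without cluster 26 (Adamts3 −0.86, adjusted p = 0.0708; Vegfd 1.42, adjusted p = 0.0748) or in the shared clusters. Ccbe1 also fell in pericyte-like nuclei (log2 fold −2.58, adjusted p = 0.00954) and over all nuclei (−2.36, adjusted p = 0.0304). In endocardial-like nuclei Nrp2, a co-receptor of VEGF-C, rose (log2 fold 1.15, adjusted p = 0.0199).

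Of the 4 genes that act beside TEK, fibroblast-like nuclei had 1 called, Ptprb (the phosphatase VE-PTP, which restrains TEK), with a log2 fold of 1.45 (adjusted p = 0.00368; in cluster 0 alone 0.06, adjusted p = 0.956), and no other tested class had a call. Of 10 oxygen-sensing genes and Vegfa regulators, cardiomyocyte-like nuclei had 1 called: Esrra, encoding an oestrogen-related receptor, fell from 140 and 139 to 65.4 and 69.7 CPM (log2 fold −1.13, adjusted p = 0.00887). It was called without cluster 26 (−0.93, adjusted p = 0.0315) and not in the shared clusters (−0.77, adjusted p = 0.0968). Ppargc1a, the mitochondrial co-activator that can raise Vegfa without low oxygen, was called lower in fibroblast-like (log2 fold −1.92, adjusted p = 0.0369), endocardial-like (−2.94, adjusted p = 0.0133), pericyte-like (−1.71, adjusted p = 0.0374) and macrophage-like nuclei, all classes whose cardiomyocyte markers were lower in YAP5SA; the part of those markers was not tested. Of 27 genes of VEGF receptor signalling, fibroblast-like nuclei had 3 called among 26 tested: Prkca (1.46, adjusted p = 0.00147), Hspb1 (1.23, adjusted p = 0.0487) and Pxn (−0.76, adjusted p = 0.0223). With 2 higher and 1 lower, that list is near the class background of 6.89% higher and 5.58% lower, and none of the 3 was called in cluster 0 alone. Endothelial-like nuclei had 0 of 24 called by edgeR. Of 16 genes known to respond to VEGF in endothelium, 13 were tested in endothelial-like nuclei and 2 were called. Igfbp3, a binding protein of insulin-like growth factors, rose from 20.8 and 34.0 to 127 and 72.4 CPM (log2 fold 1.80, adjusted p = 0.0443). Apln, the ligand apelin of endothelial tip cells, fell from 66.1 and 60.7 to 21.2 and 8.93 CPM (log2 fold −2.09, adjusted p = 0.0390). In that class 0.377% of all genes were called higher and 0.597% lower. With the loose nucleus filter no gene of the class was called, so neither call held there.

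The genes most like 4 of the members were ranked by the Pearson r of log2(CPM + 1) over 48 sums of 12 classes and 4 libraries, among 9683 genes, and the sums share libraries and the same class contrasts. Flt1 was most like Emcn (r = 0.93), a surface sialomucin of endothelium, Cyyr1 (0.89) and Thsd1 (0.88). Kdr was most like Adgrf5 (r = 0.88), Dock9 (0.86) and Ppp1r13b (0.85). Vegfa was most like Hectd2os (r = 0.88), Esrrg (0.86), an oestrogen-related receptor, and Palld (0.85), and Angpt1 was most like Cacna1g (0.74), Zfp385b (0.74) and Adamts19 (0.71).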

How the data were processed

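The matrices the authors deposited hold raw UMI counts, not normalized, of each gene in each barcode they kept; per the submitters' processing notes they used Cell Ranger 7.1.0 and mm10. For the annotation, intron use and strand setting the sources used here give nothing. Nuclei with at least 500 genes and at most 5% mitochondrial UMIs were kept. Doublets were called per library with Scrublet in scanpy 1.11.5; where it marked under 0.5% (both chow libraries, 0.0785% and 0.0115%), the top scores at 0.8% per 1000 nuclei were removed instead. Nuclei were clustered over the 4 libraries without integration, on 3000 variable genes without the 10 members and sex-linked and mitochondrial genes, with 30 principal components, 15 neighbours and Leiden resolution 1 (igraph 0.11.9), which gave 27 clusters.

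A marker counted for a cluster if 10% or more of the nuclei held it, at 0.25 or more of its highest cluster CPM. The type with the largest share of markers present named a cluster at 3 or more. Clusters with 2 or more markers of an unrelated lineage among the top 10 genes, or 6 or more genes that peaked in one, stayed unnamed. The limits were chosen with the data in view, and the clusters left unnamed held 263, 326, 634 and 423 nuclei. Class names are rebuilt here, not the authors'.

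Counts were summed per class and library and scaled to CPM of the sum. YAP5SA was tested against control with edgeR 4.0.16 (R 4.3.3; TMM, filterByExpr, quasi-likelihood), with the 2 diets as the 2 libraries of an arm, in the 7 classes that reached 50 nuclei per library and over all nuclei. Each p measures the spread between single libraries. DESeq2 1.42.0 was an alternative. Differences between classes were tested in a fit added after the data were seen, as were the cluster subsets. The code was tested on simulated data. Other alternatives changed the scaling, gene filter, nucleus filter, doublets, resolution, clustering genes and libraries.

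The members and gene lists were chosen with earlier results of these data known. Named were all 10 members, up to 6 called genes per pathway list and class, and the 3 genes most like Vegfa, Kdr, Flt1 and Angpt1, among genes with a highest CPM of at least 50. Macrophage-like and cardiomyocyte-like calls of the receptor signalling list are not reported here.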

Additional observations from a re-analysis of the deposited data

Results flagged for a closer look

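The effect of YAP5SA on 7 members differed between 2 cell classes, by the interaction of class and arm in edgeR with Benjamini-Hochberg adjustment over all genes (6 class pairs). Of 59 comparisons of a member in these 6 pairs, 17 were called. The share of all genes called was lowest between endocardial-like and endothelial-like nuclei (0.764%). It was highest between cardiomyocyte-like and fibroblast-like nuclei (12.6%). The 2 classes of a pair come from the same libraries, and the fit was added after the data were seen. All values are differences of log2 folds, first class minus second, with adjusted p.

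For Tek the difference was 2.36 between endocardial-like and fibroblast-like nuclei (adjusted p = 0.000295), 1.88 between cardiomyocyte-like and fibroblast-like (0.000918) and 2.11 between endothelial-like and fibroblast-like (2.74e-05). For Angpt2 it was −1.63 between endocardial-like and fibroblast-like (0.000440) and −0.92 between endothelial-like and fibroblast-like (0.0149), with the overlap by Mcph1 unresolved. Angpt1 differed by −0.88 between endocardial-like and fibroblast-like (0.0352), 1.81 between endothelial-like and fibroblast-like (0.0284), 2.23 between endothelial-like and cardiomyocyte-like (8.74e-05) and −2.66 between endocardial-like and endothelial-like nuclei (0.0248). The endothelial-like side of the last 3 rests on cluster 23 (19, 47, 52 and 72 nuclei): in cluster 14 alone Angpt1 was 5.69, 0.953, 11.6 and 5.67 CPM, lower in YAP5SA on each diet, and the differences were not refitted there.

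For Flt1 the difference was −1.20 both between endothelial-like and cardiomyocyte-like (0.00212) and between endocardial-like and cardiomyocyte-like (0.00991), and 1.42 between cardiomyocyte-like and fibroblast-like nuclei (0.0113). Vegfa differed by 1.24 between endothelial-like and cardiomyocyte-like (0.00108) and by 0.999 between endocardial-like and cardiomyocyte-like (0.0234). Vegfc differed by 1.04 between cardiomyocyte-like and fibroblast-like (0.0179) and −1.07 between endocardial-like and cardiomyocyte-like (0.0135), and Vegfb by −0.77 between cardiomyocyte-like and fibroblast-like nuclei (0.0425). The cardiomyocyte-like side of each pair includes cluster 26, which has no control nuclei, and no pair was refitted without it. The fibroblast-like side of the pairs above holds clusters whose shares changed between the arms. In cluster 0 alone the YAP5SA log2 fold was −0.73 for Tek, 0.58 for Angpt2 and 0.25 for Angpt1, none called. No pair was refitted within a fibroblast-like cluster.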

How the results depend on the processing

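In cardiomyocyte-like nuclei the calls (1 member higher, 2 lower) went to 0 higher and 0 lower without cluster 26 and in the shared clusters, and to 2 higher with the strict nucleus filter. In fibroblast-like nuclei 0 were called in cluster 0 only. Over all nuclei 1 was called higher and 2 lower without a gene filter or with DESeq2, and 1 lower with diet as a term. In endothelial-like nuclei 1 was called higher in cluster 14 only, without a gene filter or with DESeq2. In epicardial-like nuclei 1 was called lower with doublets kept or without a gene filter. In pericyte-like nuclei 0 were called higher with doublets kept and 2 lower without a gene filter. In macrophage-like nuclei 0 were called higher with the strict filter, and the 2 lower calls went to 0 with doublets kept, the loose filter, the strict filter or resolution 2, to 1 in cluster 7 only, with a diet term or with DESeq2, and to 4 without a gene filter. Vegfc in cardiomyocyte-like nuclei (0.61) turned to −0.10 without cluster 26 and −0.039 in the shared clusters, and Angpt1 in fibroblast-like nuclei (−1.12) to 0.25 in cluster 0 only. The cause was not tested.

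With 1 library left out, the calls ranged from 0 to 1 lower over all nuclei, 0 to 3 lower in cardiomyocyte-like, 2 to 3 lower in fibroblast-like, 0 to 1 higher in endocardial-like, 0 to 3 higher in endothelial-like, 0 to 1 lower in epicardial-like, 0 to 1 higher and 0 to 3 lower in macrophage-like, and 0 to 1 higher and 1 to 2 lower in pericyte-like nuclei. The lone library of an arm is then assumed to vary like the others. Cardiomyocyte-like Vegfa lost its call without control on chow or control on HFD, Angpt1 without YAP5SA on chow or control on HFD, and macrophage-like Angpt2 and pericyte-like Flt1 without YAP5SA on HFD. Cardiomyocyte-like Vegfb (−0.72) gained a call without YAP5SA on HFD, with RLE scaling, without a gene filter and with DESeq2. Endocardial-like Angpt1 kept its call in all 13 alternatives (−2.46 to −1.62). Macrophage-like Vegfa kept its call in 8 of 15 (−3.32 to −1.02) and macrophage-like Tek in 6 of 15 (−2.21 to −0.67). The labels number no replicates, so the only pairing is by diet. With diet as a term, macrophage-like Tek lost its call (adjusted p = 0.0572) and Angpt1 over all nuclei gained one (adjusted p = 0.0391); no other member listed here changed its call. Strict filtering left too few endocardial-like and epicardial-like nuclei for a fit.

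The number of genes called over the whole table, and so each background share, moved by over 1.5 times under some alternatives in every class. Higher and lower counts ranged from 68 to 2092 and 18 to 1247 in cardiomyocyte-like, 26 to 1723 and 29 to 1434 in fibroblast-like, 44 to 477 and 18 to 509 in endocardial-like, 0 to 501 and 0 to 448 in endothelial-like, 5 to 255 and 4 to 284 in pericyte-like, 4 to 195 and 1 to 135 in epicardial-like, and 0 to 616 and 0 to 806 in macrophage-like nuclei, and from 219 to 1128 and 35 to 692 over all nuclei.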
